A study of Mus musculus with 16 samples.

Results

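The CXC chemokine ligands described here are 10 genes, Cxcl1, Cxcl2, Cxcl3, Cxcl5, Cxcl9, Cxcl10, Cxcl11, Cxcl12, Cxcl13 and Cxcl16, found by their gene name in the array annotation and read from the brightest probe of each gene. All 10 passed the filter on dim probes and were among 24278 genes tested. The study sorted macrophages by FACS out of pancreas tumors and out of normal pancreas, divided them by the fluorescent reporter YFP, and measured their RNA on 16 one-color Agilent arrays. Tumors gave 5 YFP+ and 5 YFP- arrays and normal pancreas 3 of each, all labelled as female C57/B6 mice aged 8 to 10 weeks, with no genotype given per sample. The series as a whole names wild-type mice, KPC mice (a genetic model of pancreatic cancer) and mice carrying FLT3-Cre with an LSL-YFP reporter, in which Cre made under control of Flt3, a receptor gene of blood progenitors, switches YFP on permanently in a cell and its descendants. The treatment text speaks of implanted tumors, so whether a tumor arose in place or was implanted is not settled. Each title carries a number that occurs once in YFP+ and once in YFP- samples, 5 numbers in tumors and 3 in normal pancreas. That a number stands for a mouse is not stated, and nothing says that the samples of a group came from separate mice, so the p-values measure only the spread between these samples.

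CXC chemokines are small secreted proteins that attract leukocytes through G protein-coupled receptors. In the mouse, Cxcl1, Cxcl2, Cxcl3 and Cxcl5 bind Cxcr2 and attract neutrophils, and macrophages make several of them when NF-kB signaling is switched on by microbial products or interleukin 1. Cxcl9, Cxcl10 and Cxcl11 are induced by interferons and attract activated T and NK cells through Cxcr3. Cxcl12 (through Cxcr4), Cxcl13 (through Cxcr5) and Cxcl16 (through Cxcr6) are made in tissues without inflammation, Cxcl12 largely by stromal cells.

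All values below are log2 signals relative to the 75th percentile of the same array, so a value of 0 lies at that percentile. A value of 1 probe cannot be set against that of another probe. That percentile lay between 2167 and 3388 intensity units, the share of spots well above background was 64.9% to 75.4% by array, and no spot was saturated (0). Macrophage markers, among them Csf1r and Adgre1, were well above background on every array of each group (12 of 12 genes), and their summed signal relative to the percentile ran from 284 to 378 in tumor YFP+ samples and from 270 to 409 in tumor YFP- samples. In normal pancreas it ran from 322 to 411 for YFP+ and from 288 to 537 for YFP-. A difference was called at an adjusted p under 0.05 in limma, with Benjamini-Hochberg adjustment over all genes. In sorted samples such as these, fewer cells of a type and less RNA per cell cannot be told apart.

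The start of each gene is shown first for the neutrophil attractants with a RefSeq promoter window. Of these, Cxcl2 and Cxcl3 were called between tissues in both populations and Cxcl1 in YFP- macrophages only. In YFP+ macrophages the homeostatic ligands Cxcl12 and Cxcl16 were called as well. The windows hold the 130 bases before the start on the gene's strand, in GRCm38.p6. They lie at chr5:90891115-90891244 for Cxcl1, chr5:90903769-90903898 for Cxcl2 and chr5:90785971-90786100 for Cxcl3. Capitals mark the match to GGAATTTCC, a binding motif of NF-kB proteins.
Cxcl1: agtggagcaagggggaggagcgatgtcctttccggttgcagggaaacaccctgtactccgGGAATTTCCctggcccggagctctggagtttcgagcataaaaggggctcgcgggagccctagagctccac
Cxcl2: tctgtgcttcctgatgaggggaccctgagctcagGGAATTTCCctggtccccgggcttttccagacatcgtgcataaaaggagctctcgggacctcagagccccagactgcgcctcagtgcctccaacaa
Cxcl3: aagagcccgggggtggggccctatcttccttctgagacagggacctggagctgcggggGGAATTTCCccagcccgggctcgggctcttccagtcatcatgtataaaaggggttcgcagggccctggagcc
The motif begins 70 bases before the start in Cxcl1, 96 in Cxcl2 and 72 in Cxcl3. It is present on either strand in 104 of 32851 RefSeq promoter windows, 0.317%, counted over 250 bases before to 50 after a start. The looser form GGANNTTCC, which contains it, is present in 4.26% of windows. These motifs were picked with these promoters in mind, and a match describes letters and not a site in use.

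Cxcl2 and Cxcl3 were higher in tumor than in normal pancreas in both populations. Cxcl1 and Cxcl5 were higher in tumor in YFP- macrophages by the test. Tumor YFP+ macrophages had less Cxcl5 than tumor YFP- macrophages. The tissue comparison asks how macrophages of the tumor differ from those of the normal organ, and the population comparison how YFP+ and YFP- macrophages of 1 tissue differ.

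Between tissues in YFP+ macrophages, 4 of 10 members passed the test, 3 higher and 1 lower in tumor, where 12.1% of all genes did (6.03% higher and 6.06% lower). In YFP- macrophages 4 of 10 passed as well, all 4 higher, against 15.8% of all genes (8.03% higher and 7.74% lower). The median difference of the 10 members was 0.49 in YFP+ and 1.41 in YFP-, beside -0.04 and -0.16 over all genes. The 2 tissue comparisons use different arrays of both tissues, and the population comparisons share arrays with them. The same 5 tumor and 3 normal numbers in the titles supply both tissue comparisons, which also share 1 estimate of the spread. They are thus not known to be independent.

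**Figure D1:**
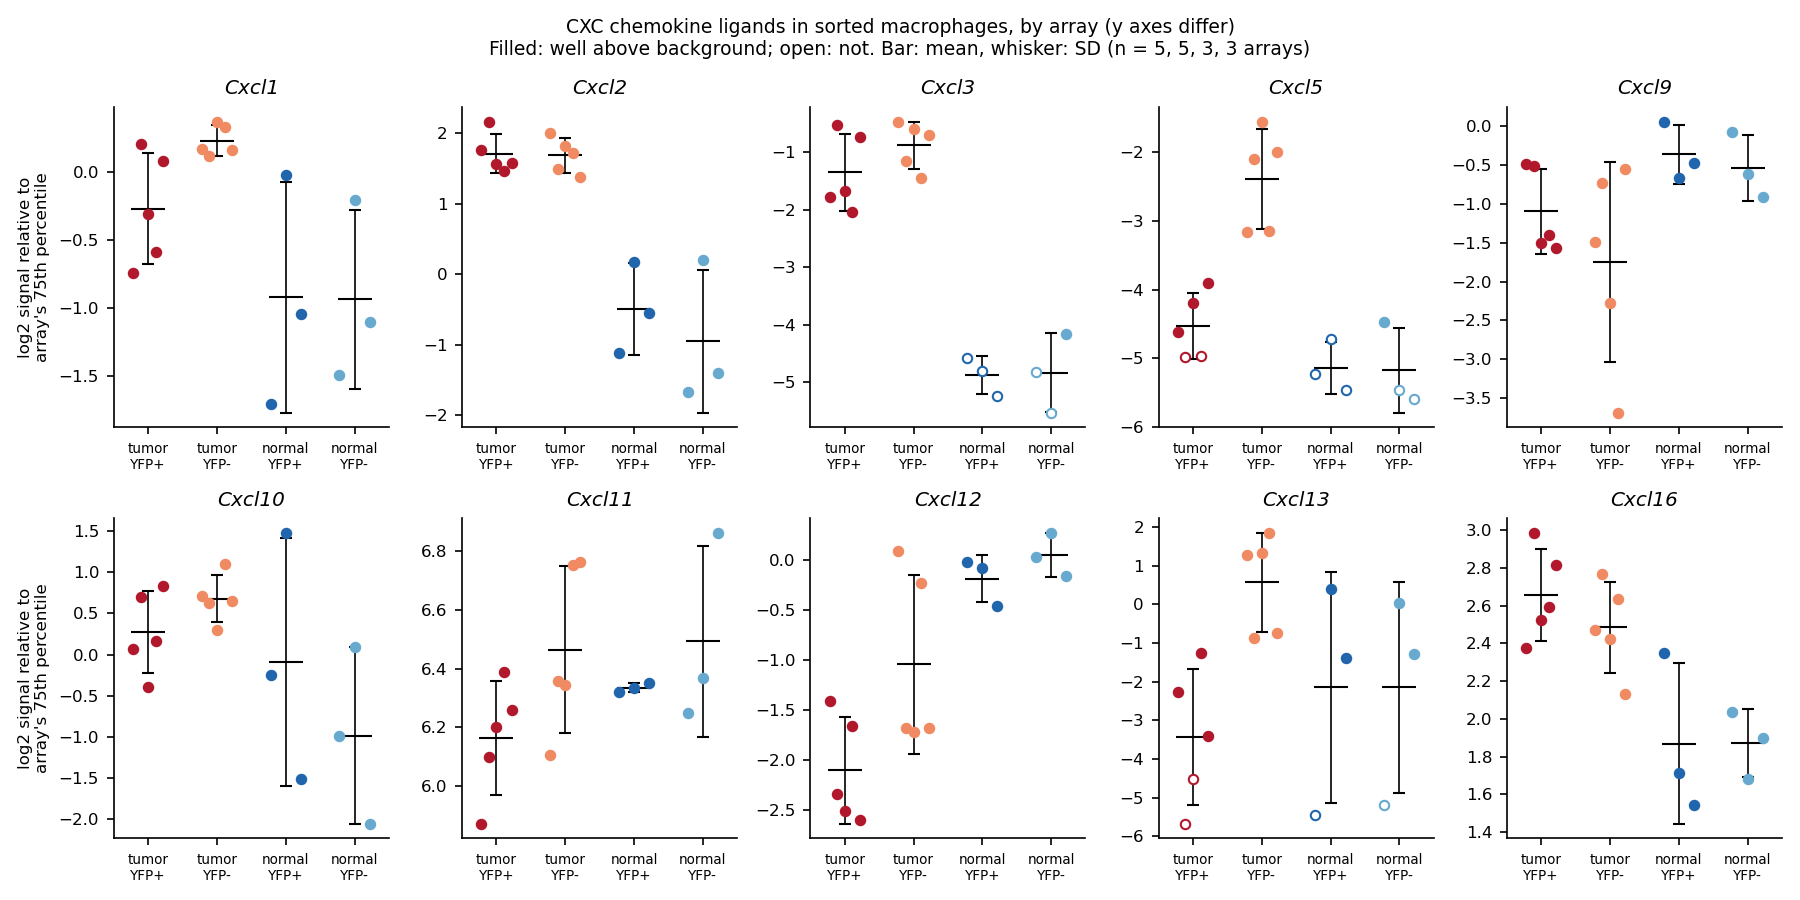
Log2 signal relative to the 75th percentile of the array (y axis) for the 10 ligands in each of 16 arrays, by group (x axis); filled points are well above background, open points are not, and bars with whiskers are means with SD (n = 5, 5, 3 and 3). Cxcl2 and Cxcl3 lie higher in all 10 tumor arrays than in the 6 normal ones, and Cxcl5 stands out in tumor YFP- arrays.

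Cxcl3, a neutrophil attractant whose probe lies at chr5:91216694-91216753 (mm9), read -1.78, -0.53, -1.68, -2.03 and -0.73 in tumor YFP+ samples, against -4.58, -4.81 and -5.24 in normal YFP+ samples. It read -0.48, -1.16, -0.60, -1.45 and -0.70 in tumor YFP- samples, against -4.81, -5.53 and -4.15 in normal YFP- samples. The tissues did not overlap: all 10 tumor arrays were above background, and of the normal arrays 0 of 3 were in YFP+ and 1 of 3 in YFP-. With the normal arrays set no lower than the lowest signal above background, Cxcl3 was at least 10.3-fold higher in tumor YFP+ samples (log2 difference 3.53 ± 0.38, SE; adjusted p = 3.30e-05, limma). In YFP- macrophages the difference was 3.96 ± 0.38 (SE; adjusted p = 8.36e-06, limma). Its size depends on the handling of the background, at 1.89 in YFP+ and 2.37 in YFP- under normexp correction, where both calls held. The limit of 10.3-fold thus holds for the main handling of the background only. Within slides that hold both tissues the difference ran from 3.56 to 4.28 in YFP+ and from 3.0 to 5.05 in YFP-, on 3 slides each.

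Cxcl2, the attractant also known as MIP-2 (probe at chr5:91334534-91334593, mm9), read 1.76, 2.16, 1.56, 1.46 and 1.58 in tumor YFP+ samples, against -1.12, 0.18 and -0.55 in normal YFP+ samples. In YFP- macrophages it read 2.0, 1.5, 1.82, 1.72 and 1.37 in tumor, against -1.67, 0.21 and -1.39 in normal pancreas. The tissues did not overlap in either population, and in normal pancreas both samples of number 23916 were the highest. Cxcl2 was 4.60-fold higher in tumor in YFP+ (2.20 ± 0.37, SE; adjusted p = 0.00116, limma) and 6.21-fold higher in YFP- macrophages (2.63 ± 0.37, SE; adjusted p = 2.43e-04, limma). Within the slides that hold both tissues the difference ran from 1.98 to 2.70 in YFP+ and from 1.79 to 3.04 in YFP-, on 3 slides each. With array quality weights it was 1.81 in YFP-, still past the test.

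Cxcl1, also called KC (probe at chr5:91321845-91321904, mm9), read -0.74, 0.21, -0.30, -0.59 and 0.08 in tumor YFP+ samples, against -1.70, -0.02 and -1.04 in normal YFP+ samples. In YFP- macrophages it read 0.17, 0.12, 0.37, 0.33 and 0.16 in tumor, against -1.49, -0.21 and -1.11 in normal pancreas. The tissues overlapped in YFP+ and not in YFP- macrophages, where the tumor arrays lay within 0.25 of each other. The difference was 1.17 ± 0.35 in YFP- (SE; adjusted p = 0.0370, limma) and 0.65 ± 0.35 in YFP+ (SE; adjusted p = 0.292). The call in YFP- macrophages was lost under 8 of 26 alternatives, 6 of which leave out 1 array: normal YFP- number 23912 (adjusted p = 0.155) or 23917 (0.111), or tumor YFP- number 23547 (0.0551), 23548 (0.0564), 23550 (0.0694) or 23551 (0.0678). It was also lost with the slide as a block (0.93, adjusted p = 0.0964) and with array weights (0.63, adjusted p = 0.126). Within slides it ran from 0.38 to 1.65, on 3 slides.

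Cxcl5, known as LIX (probe at chr5:91190490-91190549, mm9), read -4.62, -4.99, -4.19, -4.97 and -3.91 in tumor YFP+ samples. It read -3.16, -2.10, -1.55, -3.14 and -1.99 in tumor YFP- samples, -5.23, -4.72 and -5.46 in normal YFP+ and -4.47, -5.46 and -5.60 in normal YFP- samples. Tumor YFP- arrays stood above those of every other group: 5 of 5 were above background there, against 3 of 5 in tumor YFP+, 0 of 3 in normal YFP+ and 1 of 3 in normal YFP-. Cxcl5 was higher in tumor than in normal pancreas in YFP- macrophages (log2 difference 2.79 ± 0.40, SE; adjusted p = 2.85e-04, limma). In YFP+ macrophages the difference was 0.61 (95% interval -0.26 to 1.47; adjusted p = 0.417). Within tumors Cxcl5 was lower in YFP+ than in YFP- macrophages (-2.14 ± 0.35, SE; adjusted p = 0.00309, limma) and lower in YFP+ for 5 of 5 numbers, with differences from -2.89 to -1.45. Within slides it ran from -2.64 to -1.63 on 4 slides, and the tissue difference in YFP- from 2.30 to 3.5 on 3. Under normexp correction this difference was -1.28 and the tissue difference in YFP- 1.40, and both calls held. The interaction, the YFP difference in tumor minus that in normal pancreas, was -2.18 ± 0.57 (SE; adjusted p = 0.286), so a difference of the YFP effect between tissues was not called, and with array weights it was (-2.33, adjusted p = 0.0290).

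Cxcl5 was the 1 of 10 members called between YFP+ and YFP- macrophages in tumor, where 2.39% of all genes were called (0.766% higher and 1.62% lower in YFP+). Of the 10 members 3 had an unadjusted p under 0.05 there: Cxcl5, Cxcl12 and Cxcl13. In normal pancreas 0 of 10 members were called by limma between the populations, 0 of them at an unadjusted p under 0.05, beside 0.0206% of all genes. For the interaction 0 of 10 were called by limma, 1 at an unadjusted p under 0.05 (Cxcl5), beside 0.103% of all genes. The median YFP difference of the members was -0.44 in tumor and 0.01 in normal pancreas, beside 0.01 and -0.10 over all genes.

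**Figure D2:**
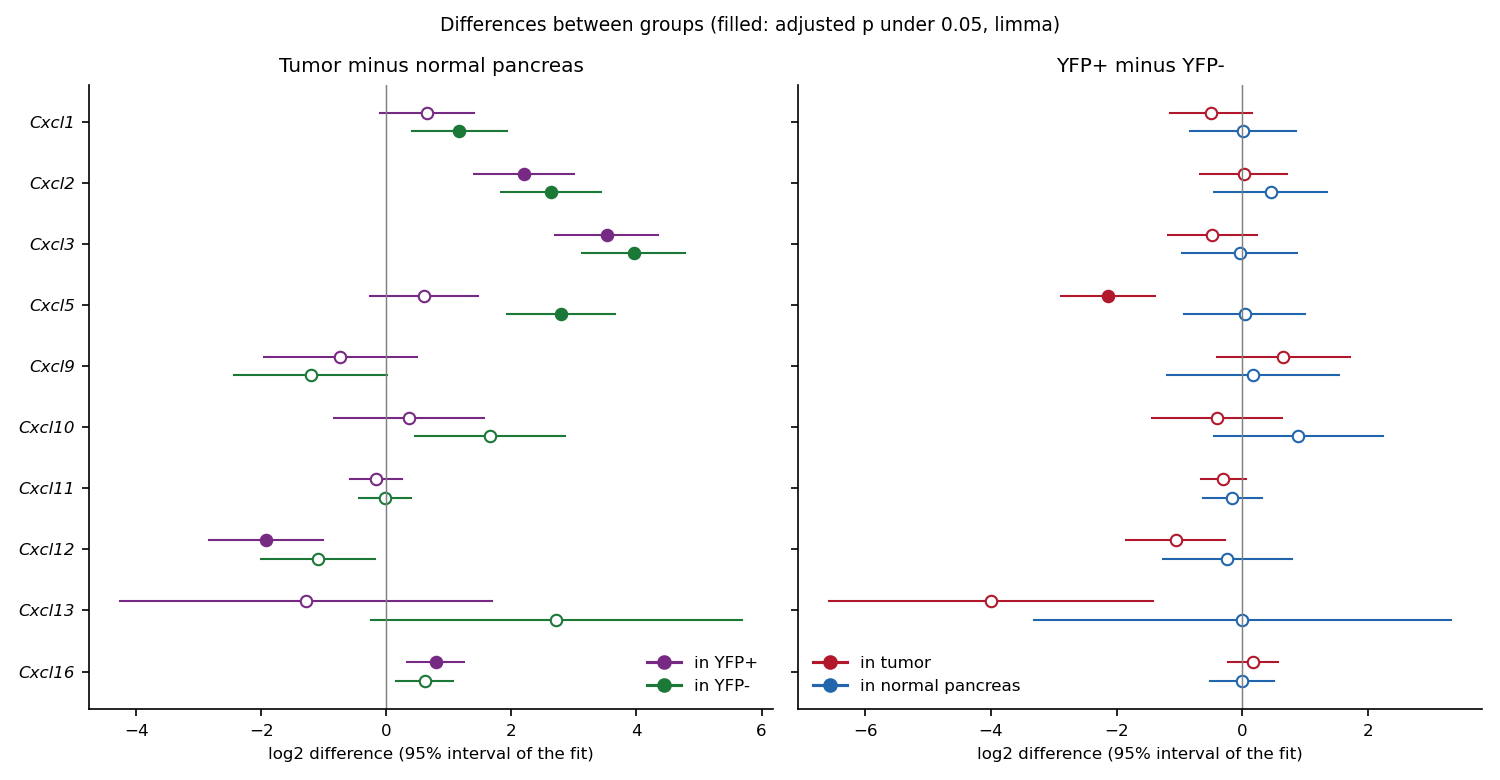
Log2 difference (x axis) with its 95% interval from the limma model for each ligand (y axis): tumor minus normal pancreas in YFP+ and YFP- macrophages (left), and YFP+ minus YFP- in tumor and normal pancreas (right); filled points have an adjusted p under 0.05. Cxcl3 has the largest tissue difference, 3.53 and 3.96, and Cxcl5 is the filled point of the right panel, at -2.14.

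Markers of other cell types moved with some of these differences. In tumor, 10 of 12 fibroblast and stellate cell markers, 6 of 9 ductal markers and 4 of 6 mast cell markers measured were lower in YFP+ than in YFP- macrophages. Over all genes 1.62% were lower there. The summed signal of the fibroblast markers ran from 4.43 to 8.98 in tumor YFP+ and 60.4 to 101 in tumor YFP- samples, with Lum and Pdgfra above background on none of the tumor YFP+ arrays. Ductal markers summed to 3.02 to 6.18 in tumor YFP+ and 14.6 to 27.5 in tumor YFP- samples, with all 9 above background on some array of each group. Mast cell markers summed to 2.06 to 5.22 in tumor YFP+ and 7.55 to 43.7 in tumor YFP- samples, again with all 6 above background somewhere in each. The part of these cells in the Cxcl5 difference was not tested.

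Between tissues the marker lists also differed. Over all genes 6.03% were higher and 6.06% lower in tumor in YFP+, and 8.03% and 7.74% in YFP-. Acinar markers summed to 2.76 to 7.95 in tumor YFP+ and 4.54 to 8.28 in tumor YFP- samples, against 190 to 287 in normal pancreas for YFP+ and 241 to 596 for YFP- samples, and 8 of 9 were lower in tumor in each population. Of 8 neutrophil markers measured, 3 were higher in tumor in YFP+ and 4 in YFP- macrophages (S100a8, S100a9 and Retnlg in both, Ngp in YFP-). Their summed signal was 32.9 to 44.8 in tumor YFP+ and 47.5 to 72.9 in tumor YFP- samples, against 30.2 to 47.2 in normal pancreas for YFP+ and 32.7 to 45.1 for YFP- samples. In YFP- macrophages 7 of 9 ductal, 5 of 12 fibroblast and 5 of 6 mast cell markers were higher in tumor. Their sums in normal YFP- samples were 3.13 to 3.57 for ductal, 7.36 to 70.0 for fibroblast and 1.24 to 3.97 for mast cell markers, with Cdh1, Tspan8 and Fcer1a above background on none of those arrays. Among the macrophage markers Adgre1 was lower in tumor in both populations, Lyz2 lower in YFP+ and Cd14 higher in YFP-. The part of these cells in the tissue differences of the ligands was not tested.

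Along chromosome 5 the 4 neutrophil attractants lie in a cluster with Ppbp, Pf4 and Cxcl15. The 6 genes that passed the filter follow in the order Cxcl5, Ppbp, Pf4, Cxcl3, Cxcl1 and Cxcl2. They span 144 kb between the first and last probe start (mm9). Ppbp, the precursor of platelet basic protein and another Cxcr2 ligand, was above background on all 10 tumor arrays and on none of the normal ones, and was at least 15.1-fold higher in tumor in YFP+ (adjusted p = 8.14e-07, limma) and at least 13.3-fold in YFP- macrophages (adjusted p = 1e-06). Pf4, platelet factor 4, lies between Ppbp and Cxcl3 and had differences of -0.69 ± 0.40 in YFP+ and -0.84 ± 0.40 in YFP- (SE; adjusted p = 0.337 and 0.174). The estimates of Pf4 were below 0 and those of the other 5 tested genes above it. The intervals of Pf4 (-1.56 to 0.17 in YFP+ and -1.71 to 0.02 in YFP-) include 0. Of the other CXC ligands, Cxcl15 and Cxcl17 did not pass the filter. The Cxcl15 probe, at chr5:91231948-91232007 between those of Cxcl3 and Cxcl1, was above background on 1 of 5 tumor YFP- arrays and on none of the other groups. Cxcl14, on chromosome 13, was higher in tumor, 4.14-fold in YFP+ (2.05 ± 0.38, SE; adjusted p = 0.00204) and 3.19-fold in YFP- macrophages (1.68 ± 0.38, SE; adjusted p = 0.00726).

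**Figure D3:**
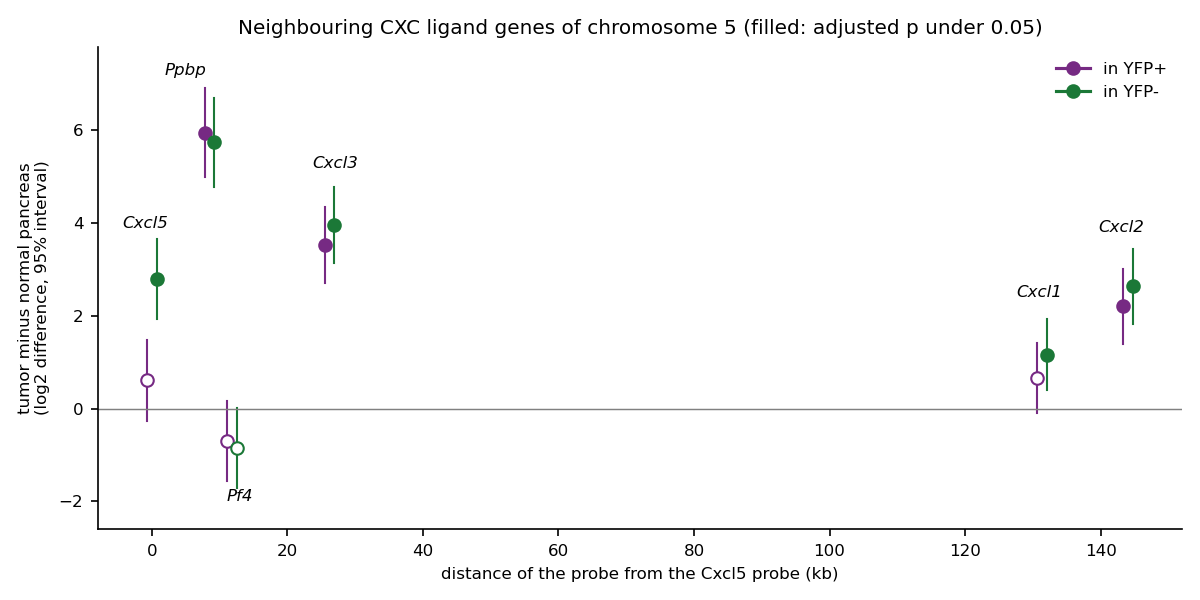
Tumor minus normal pancreas log2 difference with its 95% interval (y axis) for the 6 CXC ligand genes of the chromosome 5 cluster that passed the filter, by distance of the probe from the Cxcl5 probe in kb (x axis), in YFP+ and YFP- macrophages. Filled points have an adjusted p under 0.05. Ppbp and Cxcl3 have the largest differences, 5.95 and 3.53 in YFP+, and Pf4 between them is not called, with intervals that include 0.

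The interferon-induced ligands had no call in any comparison on their brightest probes, 0 of 3 by limma, though Cxcl10 in YFP- macrophages had an unadjusted p of 0.0101 between tissues. Each of these 3 genes also had a second probe. Of the second probes only that of Cxcl10 was called, between tissues. The share of all genes called was 0.0206% to 15.8%, depending on the comparison.

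Cxcl9, also called Mig, read -0.49, -0.51, -1.50, -1.40 and -1.57 in tumor YFP+ samples, against 0.06, -0.67 and -0.48 in normal YFP+ samples. In YFP- macrophages it read -1.49, -0.73, -2.28, -3.69 and -0.55 in tumor, against -0.08, -0.62 and -0.91 in normal pancreas. The tissues overlapped in both populations, and the tumor YFP- arrays spread over 3.15 log2 units. The tissue difference was -0.73 (95% interval -1.95 to 0.49; adjusted p = 0.506) in YFP+ and -1.21 (-2.43 to 0.01; adjusted p = 0.169) in YFP- macrophages, with a call in 1 of 27 alternatives for YFP- (array weights, adjusted p = 0.0455). The brightest probe lies at chr5:92752796-92752855 (mm9). A second probe 605 bases away was not called between tissues either (-1.17 in YFP+ and -1.05 in YFP-, adjusted p = 0.439 and 0.406). It was above background on 4 of 5 tumor YFP+ and 1 of 5 tumor YFP- arrays, and on 3 of 3 normal YFP+ and 2 of 3 normal YFP- arrays. Between the populations, YFP+ minus YFP-, this second probe differed by 1.96 in tumor (95% interval 0.44 to 3.49; unadjusted p = 0.0153, adjusted p = 0.273, limma) and by 2.08 in normal pancreas (0.11 to 4.05; unadjusted p = 0.0395, adjusted p = 0.606), where the groups did not overlap. The brightest probe gave 0.65 in tumor and 0.18 in normal pancreas, so the probes disagree in size, and neither was called.

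Cxcl10, the ligand IP-10, gave different calls by probe. Its brighter probe, at chr5:92776616-92776675 (mm9), read 0.07, 0.70, -0.40, 0.17 and 0.83 in tumor YFP+ samples, against -0.24, 1.48 and -1.51 in normal YFP+ samples. In YFP- macrophages it read 0.71, 0.62, 0.30, 1.1 and 0.65 in tumor, against -0.99, 0.09 and -2.05 in normal pancreas. The tissues overlapped in YFP+, where 1 normal sample was the highest of all, and did not overlap in YFP- macrophages. The tissue difference was 0.36 ± 0.56 in YFP+ (SE; adjusted p = 0.785) and 1.66 ± 0.56 in YFP- (SE; adjusted p = 0.0587, limma). In YFP- it passed the test under 6 of 27 alternatives, among them without normal YFP- number 23916 (2.20, adjusted p = 0.0325) and, with the same difference, without normal YFP+ number 23916 (0.0205) or 23917 (0.0286), and narrowly with only the groups compared. The mean over both probes gave 2.06 (adjusted p = 0.00599).

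The dimmer Cxcl10 probe, at chr5:92775781-92775840, 835 bases away and annotated to a RefSeq transcript where the brighter is annotated to a cDNA clone, read -0.50, 0.86, 0.04, -0.61 and 0.37 in tumor YFP+ samples, against -2.56, -0.75 and -2.72 in normal YFP+ samples. Among YFP- samples it read -0.09, 0.34, 0.48, -0.14 and -0.16 in tumor, against -2.81, -1.94 and -2.36 in normal pancreas. The tissues did not overlap on this probe in either population, and all 16 arrays were above background. With it in place of the brighter probe, an alternative chosen with these values known, Cxcl10 was 4.12-fold higher in tumor in YFP+ (2.04 ± 0.43, SE; adjusted p = 0.00514, limma) and 5.49-fold higher in YFP- macrophages (2.46 ± 0.43, SE; adjusted p = 0.00122). Within slides this difference ran from 1.61 to 2.92 in YFP+ and from 1.85 to 2.71 in YFP-. Only the dimmer probe was called. With 1 array left out, the YFP+ difference of the brighter one (95% interval -0.83 to 1.56) ran from -0.35 to 1.15. It was lowest without the array of normal YFP+ number 23917. The brighter probe shared a stretch of 16 letters with 1 other probe, the dimmer with 0. Which of the probes follows Cxcl10 RNA was not tested.

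**Figure D4:**
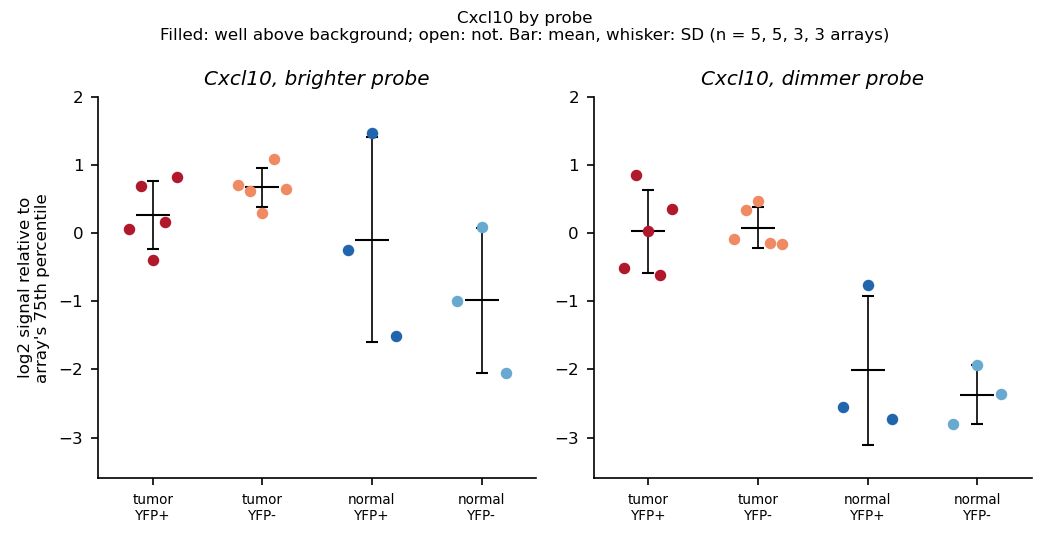
Log2 signal relative to the 75th percentile of the array (y axis) for the brighter and the dimmer probe of Cxcl10 in 16 arrays, by group (x axis); all points are well above background, and bars with whiskers are means with SD (n = 5, 5, 3 and 3). On the dimmer probe the 10 tumor arrays lie from -0.61 to 0.86 and all normal arrays below them, while on the brighter probe 1 normal YFP+ array reads 1.48.

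The promoter window of Cxcl10 is shown because it holds both an NF-kB and an interferon motif, at chr5:92348890-92349139 (GRCm38.p6, minus strand). Capitals mark a match to GAAANNGAA, the core of an interferon response element, 213 bases before the start, and then a match to GGAATTTCC read on the other strand, 158 bases before it.
Cxcl10: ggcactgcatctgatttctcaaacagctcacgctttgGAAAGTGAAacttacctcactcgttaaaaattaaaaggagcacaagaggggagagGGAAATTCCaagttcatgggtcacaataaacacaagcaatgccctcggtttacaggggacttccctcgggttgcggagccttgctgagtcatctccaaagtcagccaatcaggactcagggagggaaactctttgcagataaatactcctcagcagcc
GAAANNGAA is present on either strand in 8.56% of all windows. Of the other members with a window, Cxcl9 held it 175 bases before its start. The windows of Cxcl12 and Cxcl13 held neither GAAANNGAA nor GGANNTTCC. A further motif searched for, the gamma-activated site TTCNNNGAA, is present in 8.30% of all windows and had no match in those of the members.

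Cxcl11 has little that can be read here. RefSeq lists it as a transcribed pseudogene in the C57BL/6J reference, and both probes hold stretches that recur elsewhere. The probes are printed with capitals for the letters in 16-letter words that also occur in the promoter windows of other genes; the brighter lies at chr5:92788567-92788626 and the dimmer at chr5:92788640-92788699 (mm9, minus strand).
Cxcl11 brighter probe: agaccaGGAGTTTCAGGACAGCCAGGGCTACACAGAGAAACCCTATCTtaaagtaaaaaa
Cxcl11 dimmer probe: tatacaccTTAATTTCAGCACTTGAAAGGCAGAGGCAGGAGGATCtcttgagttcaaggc
The brighter probe shares such words with 55 promoter windows of other genes and with 19 other probes, the dimmer with 10 and 2, while no other member probe shared one with more than 2 windows. The brighter probe read 5.87, 6.10, 6.20, 6.39 and 6.26 in tumor YFP+ and 6.11, 6.36, 6.34, 6.75 and 6.76 in tumor YFP- samples. It read 6.32, 6.33 and 6.35 in normal YFP+ and 6.25, 6.37 and 6.86 in normal YFP- samples. All groups overlapped. The tissue difference was -0.17 (95% interval -0.59 to 0.25) in YFP+ and -0.03 (-0.44 to 0.39) in YFP-. On the dimmer probe it was -0.19 (-0.66 to 0.29) in YFP+ and -0.34 (-0.81 to 0.13) in YFP-, not called either.

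Among the homeostatic ligands Cxcl12 was lower and Cxcl16 higher in tumor than in normal pancreas in YFP+ macrophages, and Cxcl13 spread widely between samples. Cxcl12, also called SDF-1 (probe at chr6:117131227-117131286, mm9), read -1.41, -2.34, -2.51, -1.66 and -2.61 in tumor YFP+ samples, against -0.02, -0.08 and -0.46 in normal YFP+ samples. Among YFP- samples it read 0.09, -1.68, -1.72, -0.23 and -1.68 in tumor, against 0.03, 0.28 and -0.15 in normal pancreas. The tissues did not overlap in YFP+ macrophages, and in YFP- the tumor samples of numbers 23547 and 23551 lay nearest to the normal ones while the other 3 read lower.

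Cxcl12 was 3.78-fold lower in tumor in YFP+ macrophages (-1.92 ± 0.43, SE; adjusted p = 0.00784, limma), a call that held in 27 of 27 alternatives and ran from -2.59 to -2.05 within 3 slides. In YFP- the difference was -1.09 ± 0.43 (SE; adjusted p = 0.100), which passed the test without the tumor YFP- array of number 23547 (-1.38, adjusted p = 0.0273) and with array weights (-1.14, adjusted p = 0.0245). Between the populations in tumor it was -1.06 ± 0.37 (SE; adjusted p = 0.241), and lower in YFP+ for 5 of 5 numbers. With the mean over its probes this difference was -1.25 (adjusted p = 0.0421). It was also called with the number in the titles as a block, given in a later section. The second probe was above background on none of the 10 tumor arrays. The lower fibroblast marker signal of tumor YFP+ samples given above moves with this population difference, and its part was not tested. Between tissues in YFP+ macrophages, 1 of 12 fibroblast markers was lower in tumor (Dcn) and 1 higher (Acta2), and their sum was 4.43 to 8.98 in tumor against 11.1 to 17.4 in normal pancreas, with Pdgfra above background in neither group.

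Cxcl13, the attractant of B cells (probe at chr5:96389861-96389920, mm9), read -2.28, -5.67, -4.51, -1.26 and -3.42 in tumor YFP+ samples, against 1.29, -0.86, 1.32, 1.86 and -0.75 in tumor YFP- samples. It read -5.45, 0.39 and -1.38 in normal YFP+ and -5.20, 0.04 and -1.29 in normal YFP- samples. The tumor populations did not overlap, and 3 of 5 YFP+ against 5 of 5 YFP- arrays were above background. In normal pancreas both samples of number 23912 were below background and the other 4 above it.

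The Cxcl13 difference between the tumor populations was -4.0 ± 1.2 (SE; adjusted p = 0.132, limma), the largest of the 10 members in size and not past the test. It was lower in YFP+ for 5 of 5 numbers, with differences from -5.83 to -2.67. It passed the test under 3 of 26 alternatives. These were normexp correction (-2.81, adjusted p = 0.0231), only the tumor groups in the fit (adjusted p = 0.0375), and the number in the titles as a block, given in a later section. The fibroblast, ductal and mast cell marker sums were also lower in tumor YFP+ samples, while the B and plasma cell sum was higher there. The part of these cells was not tested. Between tissues the difference was -1.28 (95% interval -4.25 to 1.69) in YFP+ and 2.72 (-0.25 to 5.69) in YFP- macrophages, neither called (adjusted p = 0.664 and 0.203).

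Cxcl16, a ligand made with a membrane anchor that also acts as a scavenger receptor (probe at chr11:70267780-70267839, mm9), read 2.37, 2.99, 2.52, 2.59 and 2.81 in tumor YFP+ samples, against 2.35, 1.71 and 1.54 in normal YFP+ samples. Among YFP- samples it read 2.47, 2.77, 2.42, 2.64 and 2.13 in tumor, against 2.03, 1.68 and 1.90 in normal pancreas. The tissues did not overlap but lay close to each other in both populations. Within slides the difference ran from 0.46 to 1.27 in YFP+ and from 0.10 to 0.87 in YFP-. The difference was 0.79 ± 0.21 in YFP+ (SE; 1.73-fold; adjusted p = 0.0246, limma) and 0.61 ± 0.21 in YFP- macrophages (SE; adjusted p = 0.0649). The call in YFP+ was lost under 6 of 26 alternatives: without normal YFP+ number 23916 (adjusted p = 0.112) or 23917 (0.141), without tumor YFP+ number 23548 (0.0549) or 23677 (0.0553), with the deposited values (0.0536) and with only the groups compared (0.0662). In YFP- it was gained under 3, with array weights (0.83, adjusted p = 0.00217) and without the array of normal YFP+ number 23912 (0.0407) or tumor YFP- number 23677 (0.0340).

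Among the 8 receptors of the family measured, 3 were higher in tumor in each population, beside 6.03% of all genes in YFP+ and 8.03% in YFP-, and 1 was higher in YFP+ within tumors, beside 0.766%. Cxcr2, the receptor of the neutrophil attractants, read -0.04 to 0.28 in tumor YFP+ against -1.91 to -0.97 in normal YFP+ samples. Among YFP- samples it read 0.42 to 1.45 in tumor against -1.95 to -0.25 in normal pancreas. Its difference was 1.52 ± 0.33 in YFP+ (SE; adjusted p = 0.00636, limma) and 2.19 ± 0.33 in YFP- (SE; adjusted p = 3.79e-04). Neutrophils also carry Cxcr2, their marker sums are given above, and their part was not tested.

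Cxcr3, the receptor of Cxcl9, Cxcl10 and Cxcl11, read 0.10, 0.09, 0.52, 0.15 and 0.52 in tumor YFP+ samples, against -1.58, -1.97, -0.04, -0.85 and -1.81 in tumor YFP- samples. The groups did not overlap, and Cxcr3 was 2.88-fold higher in YFP+ (1.53 ± 0.36, SE; adjusted p = 0.0363, limma). T and NK cells carry Cxcr3: of their 9 markers 0 were called between the tumor populations by limma, and the sums were 4.34 to 5.42 in tumor YFP+ and 4.90 to 18.8 in tumor YFP- samples. B and plasma cell markers summed to 31.3 to 54.9 in tumor YFP+ and 6.77 to 18.8 in tumor YFP- samples, with 2 of 7 higher in YFP+ (Mzb1 and Tnfrsf17), and their part was not tested.

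Cxcr4, the receptor of Cxcl12, was higher in tumor by 0.92 ± 0.27 in YFP+ (SE; adjusted p = 0.0353, limma) and 1.16 ± 0.27 in YFP- macrophages (SE; adjusted p = 0.00779). Ackr3, an atypical receptor that takes up Cxcl12, was above background on 4 of 5 tumor YFP+ and 3 of 5 tumor YFP- arrays and on none of the normal ones, at least 1.97-fold higher in tumor in YFP+ (adjusted p = 0.0112, limma) and 2.26-fold in YFP- (adjusted p = 0.00313). Both receptors were thus higher in tumor in both populations, while their ligand Cxcl12 was lower in YFP+. Cxcr1, Cxcr5, Cxcr6 and Ackr1 were called in no comparison. Cxcr5, the receptor of Cxcl13, was below background on 8 of 16 arrays. Cxcr6, the receptor of Cxcl16, differed between tissues by -0.57 ± 0.29 in YFP+ (SE; adjusted p = 0.258) and 0.23 ± 0.29 in YFP- (SE; adjusted p = 0.619).

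**Figure D5:**
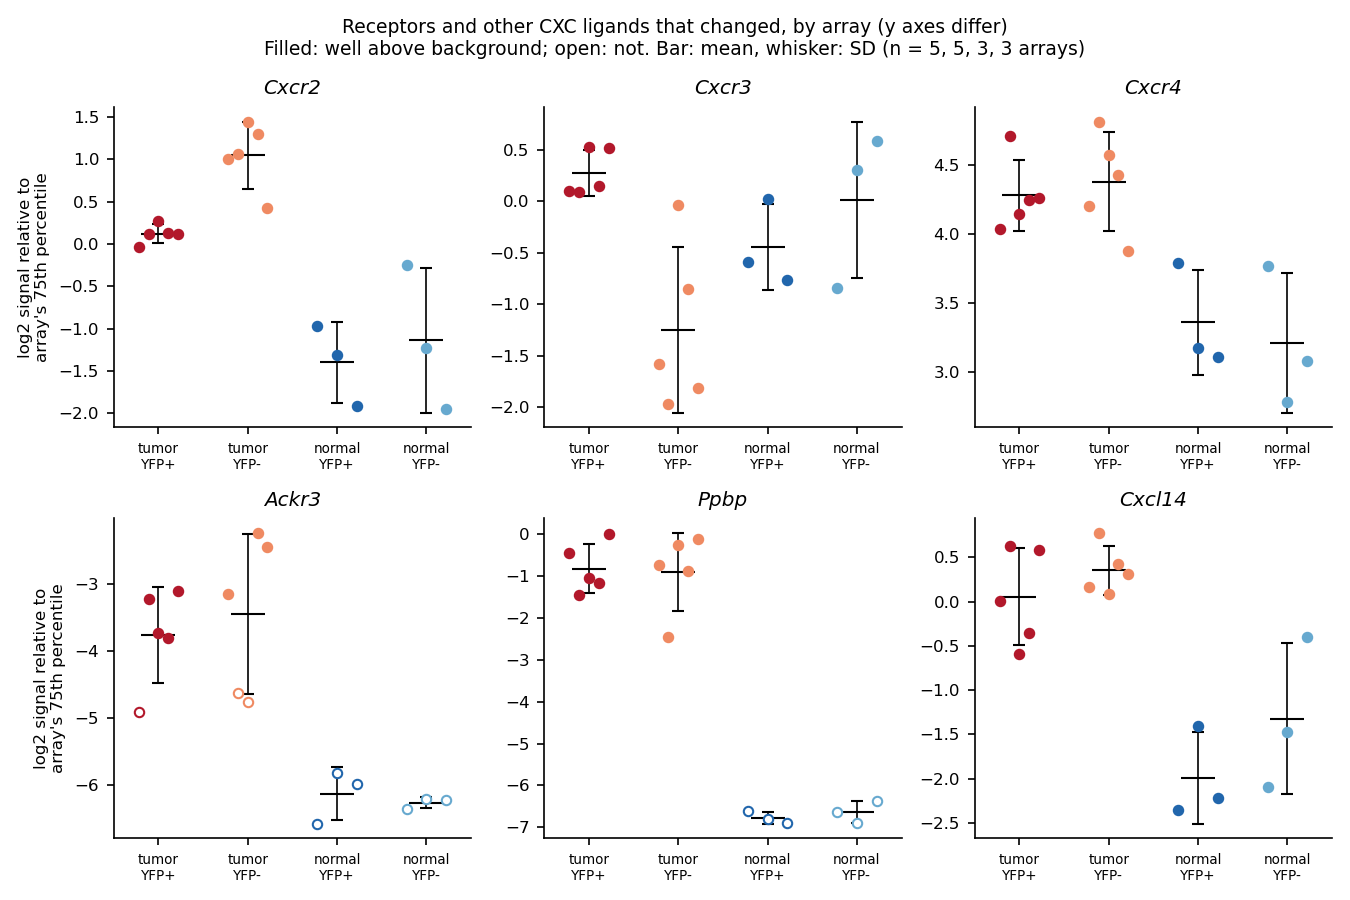
Log2 signal relative to the 75th percentile of the array (y axis) by group (x axis) for the receptor genes Cxcr2, Cxcr3, Cxcr4 and Ackr3 and the ligand genes Ppbp and Cxcl14 in 16 arrays; filled points are well above background, open points are not, and bars with whiskers are means with SD (n = 5, 5, 3 and 3). All normal arrays of Ppbp and Ackr3 are open, and Cxcr3 lies at 0.09 or higher in tumor YFP+ and at -0.04 or lower in tumor YFP- arrays.

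For the NF-kB route, through which macrophages can switch on neutrophil attractants, the RNA of a list of genes was read. The activity of the route was not tested. Of 16 genes of the NF-kB route tested, 6 were higher in tumor in YFP+ macrophages and 5 in YFP-, and 0 were lower, beside 6.03% of all genes higher in YFP+ and 8.03% in YFP-. The list had a median of 0.19 and 0.30 beside -0.04 and -0.16 over all genes. Il1b, interleukin 1 beta, was higher by 3.09 ± 0.16 in YFP+ (SE; adjusted p = 2.42e-08, limma) and 3.81 ± 0.16 in YFP- (adjusted p = 6.12e-09). Il1a, interleukin 1 alpha, rose by 4.82 ± 0.32 in YFP+ and 4.67 ± 0.32 in YFP- (SE; adjusted p = 3.30e-07 and 3.24e-07), with 1 of 3 normal arrays above background in each population. Tnfaip3, which encodes the inhibitor A20, rose by 1.41 and 2.42, the subunit gene Rel by 1.60 and 1.95, and Zc3h12a, which encodes an RNase that degrades cytokine mRNAs, by 0.83 and 1.0 (YFP+ and YFP-; adjusted p between 1.57e-05 and 0.0167). Nfkb2, the subunit of the non-canonical route, rose in YFP+ (0.86 ± 0.18, SE; adjusted p = 0.00498) and was also higher in YFP+ than in YFP- within tumors (0.77 ± 0.16, SE; adjusted p = 0.0134).

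Of 17 genes of the interferon route, 2 were higher in tumor (Socs1 by 1.13, Jak2 by 0.86) and 2 lower (Irf1 by -0.64, Irf9 by -0.89) in YFP+ macrophages, and 1 higher (Jak2, 1.2) and 1 lower (Irf1, -0.58) in YFP-. Over all genes 6.03% were higher and 6.06% lower in YFP+, and 8.03% and 7.74% in YFP-, so these counts lie near the share of all genes. Irf1 encodes a transcription factor of the Cxcl9 and Cxcl10 response, and Socs1 an inhibitor of Janus kinases. Of 12 interferon target genes tested, 0 were higher and 4 lower in tumor in each population by limma, beside 6.06% of all genes lower in YFP+ and 7.74% in YFP-. These were Mx1 (-2.64 and -2.17), Usp18 (-1.58 and -1.35) and Ifit3 (-1.53 and -1.59) in YFP+ and YFP-, Gbp3 in YFP+ (-0.71) and Ifit1 in YFP- (-1.41; 1 of 5 tumor arrays above background), with adjusted p between 0.00734 and 0.0457. Cxcl10 on its dimmer probe thus differed in the opposite direction to these targets.

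Of 6 proteases that process chemokines, Mmp8 and Mmp12 were higher in tumor in both populations, Mmp12 by 3.01 ± 0.32 in YFP+ and 4.34 ± 0.32 in YFP- (SE; adjusted p = 2.81e-05 and 6.53e-07, limma) while Mmp8 was at least 20.1-fold higher in YFP+ (adjusted p = 1.55e-05; 0 of 3 normal arrays above background) and higher by 4.22 ± 0.51 in YFP- (SE; adjusted p = 6.03e-05; 2 of 3 above background). Adam10, which sheds Cxcl16 from the membrane, was higher in tumor in YFP- macrophages (0.63 ± 0.20, SE; adjusted p = 0.0485). Over all genes 6.03% were higher in tumor in YFP+ and 8.03% in YFP-. Of the 4 genes of the lymphotoxin route, which acts upstream of Cxcl13 in lymphoid tissue, 0 were called in any comparison by limma. Over all genes 0.0206% to 15.8% were called, depending on the comparison.

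Members not called between the populations had these differences and 95% intervals. On the brightest probes in tumor, YFP+ minus YFP-, Cxcl1 differed by -0.50 (-1.15 to 0.16), Cxcl2 by 0.02 (-0.67 to 0.72) and Cxcl3 by -0.47 (-1.19 to 0.24). Cxcl9 differed by 0.65 (-0.40 to 1.71), Cxcl10 by -0.40 (-1.44 to 0.64), Cxcl11 by -0.30 (-0.66 to 0.06) and Cxcl16 by 0.17 (-0.22 to 0.57). The intervals of Cxcl1, Cxcl2 and Cxcl3 leave out a difference of the size seen for Cxcl5. In normal pancreas the estimates of the brightest probes ran from -0.24 (Cxcl12) to 0.89 (Cxcl10, -0.45 to 2.23), and that of Cxcl13 had the widest interval (-3.32 to 3.32). A p that misses the threshold does not show that the populations were alike.

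The 3 genes with the highest Pearson r to each member over the log2 values of 16 arrays are given as a description, since the points share tissue, population and slide; the second value of each is r of the deviations from the group means. For Cxcl1 they were Nfkbid (0.89; 0.84), Ehd1 (0.89; 0.77) and Epha2 (0.89; 0.81), for Cxcl2 Gm6377 (0.97; 0.82), Clec4e (0.97; 0.76) and Ccl4 (0.96; 0.82), and for Cxcl3 Mvb12b (0.97; 0.69), Tmem273 (0.97; 0.66) and Hilpda (0.97; 0.49). For Cxcl5 a probe with no gene name led (0.97; 0.86), then 5830408B19Rik (0.94; 0.60) and Tph1 (0.94; 0.77). For Cxcl9 they were Msx2 (0.90; 0.94) and the olfactory receptor genes Olfr898 (0.88; 0.84) and Olfr141 (0.87; 0.84). Cxcl10 on its brighter probe had C130073F10Rik (0.90; 0.84), Phb (0.88; 0.86) and an unnamed transcript (0.84; 0.80). Cxcl11 had Triobp (0.94; 0.96), Pak4 (0.93; 0.92) and Septin3 (0.92; 0.93). For Cxcl12 they were Tns1 (0.90; 0.66), an unnamed transcript (0.89; 0.82) and Slc28a2 (0.89; 0.75), for Cxcl13 Cald1 (0.92; 0.89), Ccdc9b (0.86; 0.81) and Enpp2 (0.85; 0.81), and for Cxcl16 a probe with no gene name (0.95; 0.91), Khk (0.95; 0.92) and Gem (0.94; 0.82).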

How the data were processed

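Per the file headers, the deposited scanner files hold red-channel (Cy5) intensity values from Agilent Feature Extraction 11.5.1.1, processed by that software with spatial and multiplicative detrending on, separate background correction off and surrogates for the dimmest spots, and probe positions on mm9. The authors' deposited value table is on the log2 scale; each sorted column is equal between arrays within 0.00690 and its median is 9.02 in each array, with the step behind this not given in the sources used here. It served as an alternative. Per the labels, RNA was amplified and labelled chemically before hybridization.

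Here, log2 of the processed intensity was scaled to the 75th percentile of each array over probes other than controls, spots marked as outliers were left out, and probes well above background on at least 3 of 16 arrays were kept. Genes were named from a RefSeq table by accession (28330 probes), symbol (2204) or synonym (174), and otherwise as in the files. The brightest probe stood for a gene. limma 3.58.1 in R 4.3.3 fitted 4 group means to 24278 genes, with 5 contrasts, two-sided tests and Benjamini-Hochberg adjustment, and was tested on simulated data. A fold against a group below background on every array sets each of its arrays no lower than that array's lowest signal well above background. Such a fold is a lower limit under this handling of the background only. Promoter windows are from RefSeq, with an entry for 7 of the 10 members. The number of arrays limits the precision. All 10 members are named whatever their values, all CXC receptors and other CXC ligands, and of the other lists the genes called, at most 6 per list and comparison; the 3 genes most like each member by Pearson r are also given. The members, lists and motifs were chosen with earlier results of these data known, and the series' Cxcl5 difference in tumor was among those. Alternatives were another background correction, normalization, filter, probe rule, block, weighting and set of arrays.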

Additional observations from a re-analysis of the deposited data

How the results depend on the processing

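Signal over background limits the dim members: between 14.6% and 24.1% of the spots of an array carried a surrogate in place of a measured signal, and Cxcl3, Cxcl5 and Cxcl13 were below background on some arrays. The number of members called in tumor between YFP+ and YFP- was 1 (Cxcl5) and became 2 with normexp correction (Cxcl5 and Cxcl13), 2 with the mean over probes (Cxcl5 and Cxcl12), 2 with only the groups compared (Cxcl5 and Cxcl13) and 3 with the replicate block, the number in the titles (Cxcl5, Cxcl12 and Cxcl13, with Cxcl12 at adjusted p = 0.0162 and Cxcl13 at 0.00267). For the interaction it was 0, and 1 with array weights (Cxcl5). The counts for the other 3 comparisons stayed within 1.5 times under all alternatives run. The cause of these changes was not tested. The replicate block left the calls at 0 in normal pancreas, 4 and 4 between tissues and 0 for the interaction. Whether the numbers mark pairs is not settled. Deviations of same-numbered samples correlated across genes at 0.31, 0.22, 0.06, -0.19 and -0.29 in tumors and 0.27, 0.13 and -0.02 in normal pancreas. In the same order, the highest r of the YFP+ sample with a YFP- sample of another number was 0.46, 0.48, 0.04, 0.37 and 0.27 in tumors. In normal pancreas it was -0.04, 0.07 and 0.25. The median difference of all genes between YFP+ and YFP- in tumor was -0.12 with normexp correction and 0.01 without, a shift against which the member differences there are read; between tissues in YFP- it was 0.06 and -0.16. Cxcl2, Cxcl3 and Cxcl5 kept every call of theirs under all alternatives run, as did Cxcl12 in YFP+ between tissues. Over all genes, the 5 calls between populations in normal pancreas became 1165 with array weights and 334 without the YFP- array of number 23912, and 0 to 17 in the other alternatives. The 25 interaction calls ran from 5 to 358, the 2936 tissue calls in YFP+ from 1957 to 4467 and the 3829 in YFP- from 2267 to 9225, the highest of each with array weights.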

Other observations

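Within normal pancreas several ligands followed the number in the titles, a pattern noticed after the values were seen and not tested. Both samples of number 23916 were the highest of their group for Cxcl1, Cxcl2, Cxcl10 on each of its probes and Cxcl13. For Cxcl13 the YFP+ and YFP- samples of the same number differed by -0.25 to 0.34 log2 units, while the 3 numbers ran from -5.45 to 0.39 in YFP+ and from -5.20 to 0.04 in YFP- samples. Cxcl12 in tumor showed a like order: numbers 23547 and 23551 were the highest of 5 in YFP+ and in YFP- samples, at -1.41 and -1.66 in YFP+ against 0.09 and -0.23 in YFP-. For Cxcl13 the same 2 numbers were the highest in tumor YFP+ samples, at -2.28 and -1.26, but not in tumor YFP- samples, where 23550 at 1.32 lay above 23547 at 1.29.

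Across the 16 arrays, deviations from the group means of Cxcl1 and Cxcl2 correlated at r = 0.83, those of Cxcl1 and Cxcl10 at 0.65 and those of Cxcl2 and Cxcl10 at 0.60, given as descriptions, since the arrays share slides. No array stood apart from its group of 5 by Dixon's rule in any of 28 sets tested, a rule that flags about 1 in 20 sets by chance.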
